A study of Mus musculus with 16 samples.

Results

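Meis1, Meis2, Meis3, Pbx2 and Pbx3 are 5 of the 21883 protein-coding genes in the gene annotation used here. They encode homeodomain transcription factors of the TALE class and were taken as a named set of genes. A locus was defined as the gene with 100 kb on either side. Merging the peaks of all 16 ATAC-seq lists gave 127 regions at these loci, out of 163173 regions in the genome.

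TALE homeodomain proteins bind DNA mostly as partners. MEIS proteins pair with PBX proteins, the pair can bind together with HOX proteins, and PBX proteins depend on MEIS or the related PKNOX proteins to stay in the nucleus. In the mouse embryo, MEIS factors take part in eye, forebrain, hindbrain and limb development, and Meis1 and Meis2 act upstream of the eye regulator Pax6. ATAC-seq reads accessible chromatin from the places where a transposase can insert, and a peak is a stretch where insertions exceed the background of that library.

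All samples derive from mouse embryonic stem cells (ESCs) that carry an Rx:GFP knock-in, a reporter for the eye field gene Rax. Embryoid bodies (EBs) are aggregates of such cells, here differentiated by the SFEBq method in GMEM with knockout serum replacement and with matrigel added on the first day. The EB groups were Wdr5 and p53 double knockout EBs, whose labels give no day, and parental EBs of day 4. The undifferentiated ESCs, kept in 2i+LIF, comprised Wdr5 and p53 double knockout cells that stably carried a WDR5WT plasmid, a WDR5 S91K-Y191F plasmid or the backbone plasmid, p53 knockout cells of clone H9 or clone C9, and parental Rx:GFP cells. WDR5 is a core subunit of the COMPASS histone methyltransferase complexes, and p53 is the stress response transcription factor encoded by Trp53. Each of the 8 groups had 2 libraries, the plasmid lines and the clones each stand for a single line as far as the labels tell, and no p53 knockout EB was analysed here, so the double knockout EBs differ from parental EBs in both genes. Nothing in the labels tells whether a group's libraries came from independent cultures, and p-values therefore reflect the variation between libraries, which may be technical.

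The EB lists held between 75673 and 93646 peaks and the ESC lists between 1535 and 32709. The shortest were both backbone lists with 1535 and 2492 peaks, followed by replicate 1 of S91K-Y191F with 5174 and replicate 2 of parental ESCs with 5330. The deposited files are peak lists without read counts, so the sequencing depth is unknown and a missing peak does not show that a region was closed. EB and ESC lists also differ in format and in peak width, so that stage and list type cannot be told apart. Of 7 neural and eye field marker genes, 6 had a peak within 1000 bp of a gene end in either double knockout EB list and 7 in either parental EB list, against 0 to 5 in the ESC lists. Of 7 naive pluripotency genes, 5 to 6 had such a peak in the double knockout EB lists, 7 in the parental EB lists and 1 to 6 in the ESC lists. In the same order, formative and primed genes had 4 to 5, 5 and 0 to 4 of 5. Primitive streak and mesoderm genes had 4, 4 and 0 to 3 of 5. Endoderm genes had 2, 2 to 3 and 0 to 3 of 4, and trophectoderm genes 3, 2 to 4 and 0 to 2 of 4. The EB lists are longer and no share over all genes was taken, so these counts name no cell type.

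The sequences before a start site of Pbx2, Meis1 and Meis3 are shown because their peaks differ: that of Pbx2 had a peak only in EB lists, and those of Meis1 and Meis3 had peaks in both stages. Each is the 250 bases before the start site given in a RefSeq promoter table, build GRCm38.p6 (mm10), read 5′ to 3′ on the gene's strand. The Pbx2 site is the start of the gene interval used here, while the site lies 682 bp inside that interval at Meis1, 1383 bp at Meis3 and 2918 bp at Meis2, so these start windows are within the gene and not at its outer end. The Meis2 start window is not printed, and Pbx3 had no entry in the table. Capitals mark the GC box, GGGCGG or CCGCCC, which Sp1-type factors bind, and the CCAAT box, CCAAT or ATTGG, which NF-Y binds.
Pbx2, chr17:34592009-34592258, plus strand: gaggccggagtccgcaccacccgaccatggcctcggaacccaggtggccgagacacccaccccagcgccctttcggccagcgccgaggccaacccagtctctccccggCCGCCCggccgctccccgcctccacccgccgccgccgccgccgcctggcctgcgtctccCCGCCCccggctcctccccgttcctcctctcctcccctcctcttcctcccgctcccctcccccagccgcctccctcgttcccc
Meis1, chr11:19018970-19019219, minus strand: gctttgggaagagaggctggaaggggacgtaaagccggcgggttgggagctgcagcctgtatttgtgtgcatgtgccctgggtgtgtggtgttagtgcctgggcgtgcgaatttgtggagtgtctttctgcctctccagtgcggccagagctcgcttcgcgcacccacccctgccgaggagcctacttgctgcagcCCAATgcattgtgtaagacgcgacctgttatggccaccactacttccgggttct
Meis3, chr7:16175145-16175394, plus strand: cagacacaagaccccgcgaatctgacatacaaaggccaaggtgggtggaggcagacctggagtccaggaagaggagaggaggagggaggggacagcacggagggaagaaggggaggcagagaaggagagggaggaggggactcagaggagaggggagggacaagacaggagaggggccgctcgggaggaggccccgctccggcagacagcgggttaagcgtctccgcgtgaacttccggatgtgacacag

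The Pbx2 start window was 77.6% G and C with 27 CpG dinucleotides and 2 GC boxes, against medians of 55.6% and 10 over 21262 start windows of the same length and table. Only 3.06% of those had as high a share of G and C, and 42.6% held a GC box on either strand. G and C made up 59.6% of the Meis1 start window, 63.6% of that of Meis3 and 47.6% of that of Meis2. The Meis1 and Meis2 start windows each held 1 CCAAT box, a motif present in 35.4% of all start windows. None of the 4 held, on either strand, the MEIS motif TGACAG, the PBX and MEIS motif TGATTGAC or the PBX and HOX motif TGATNNAT, which occurred in 15.4%, 0.696% and 6.68% of all start windows. These letters are therefore not in these windows, and nothing more can be read from that.

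The first comparison asked how the accessible regions of the loci differed between EBs and ESCs. Every locus had more peaks in each of the 4 EB lists than in any of the 12 ESC lists, a pattern seen at 73.0% of all gene windows. Of the 127 regions, 122 were in at least 1 EB list and 38 in at least 1 ESC list. Over the genome, the 4 EB lists merged alone gave 149618 regions, the 12 ESC lists merged alone 52480 and all 16 lists 163173. The same shares of the 16-list regions were not computed. Regions found in all 4 EB lists and in no ESC list numbered 19, or 15.0%, against 10.3% of all regions in the genome. Pbx2 had 7 of them, Meis1 had 5, Meis2 had 4, Meis3 had 3 and Pbx3 had none.

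The Meis1 window, whose gene encodes a MEIS factor of eye and blood development, spans 339.224 kb on chromosome 11 and holds no other protein-coding gene. It had 14 and 19 peaks in double knockout EBs and 25 and 22 in parental EBs, against 10 and 7 in WDR5WT ESCs, 0 and 3 in S91K-Y191F ESCs, 0 and 0 in backbone ESCs, 7 and 7 in clone H9, 8 and 9 in clone C9 and 4 and 0 in parental ESCs. Parental EBs were highest, double knockout EBs lay below them without overlap, and the short ESC lists were at or near 0. The share of gene windows with such a gap in counts was not computed. Per 10000 peaks of a list, both double knockout lists lay below both parental EB lists at 33.0% of gene windows. Meis2, which acts in forebrain, retina and neural crest, lies in a window of 406.274 kb on chromosome 2. It had 22 and 26 peaks in double knockout EBs and 24 and 21 in parental EBs, against 9 and 7 in WDR5WT ESCs, 1 and 5 in S91K-Y191F ESCs, 0 and 0 in backbone ESCs, 11 and 11 in clone H9, 7 and 7 in clone C9 and 8 and 1 in parental ESCs. Here the EB genotypes overlapped, and clone H9 was the highest ESC group.

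Meis3, a hindbrain regulator in Xenopus, is a short gene of 12499 bp on chromosome 7 with 9 other genes in its window. Its window had 16 and 17 peaks in double knockout EBs and 20 and 17 in parental EBs, against 7 in each library of WDR5WT, H9 and C9 ESCs, 3 and 6 in S91K-Y191F ESCs, 0 and 2 in backbone ESCs and 8 and 3 in parental ESCs. Of the 8 regions with an ESC peak there, 5 overlapped an end of another gene, namely Napa, Kptn, Dhx34, Inafm1 or Ccdc9. Pbx2, a broadly expressed PBX partner, spans 5142 bp on chromosome 17 among 12 other genes. It had 15 and 14 peaks in double knockout EBs and 17 and 16 in parental EBs, against 4 and 4 in WDR5WT ESCs, 1 and 3 in S91K-Y191F ESCs, 0 and 1 in backbone ESCs, 4 and 4 in clone H9, 3 and 3 in clone C9 and 4 and 1 in parental ESCs. In counts, double knockout EBs lay just below parental EBs, and far above every ESC library. The share of gene windows with such a gap in counts between EB genotypes was not computed. Relative to list length, the EB genotypes overlapped at Pbx2.

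Pbx3, a PBX factor that mice need for the control of breathing, spans 200589 bp on chromosome 2 and shares its window with Mapkap1. It was the sparsest locus, with 7 and 10 peaks in double knockout EBs and 7 and 7 in parental EBs, against 3 in each library of WDR5WT, H9 and C9 ESCs, 0 and 2 in S91K-Y191F ESCs, 0 and 0 in backbone ESCs and 3 and 0 in parental ESCs. Replicate 2 of the double knockout EBs, the longest of all lists, stood above the other EB lists, which were level.

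**Figure D1:**
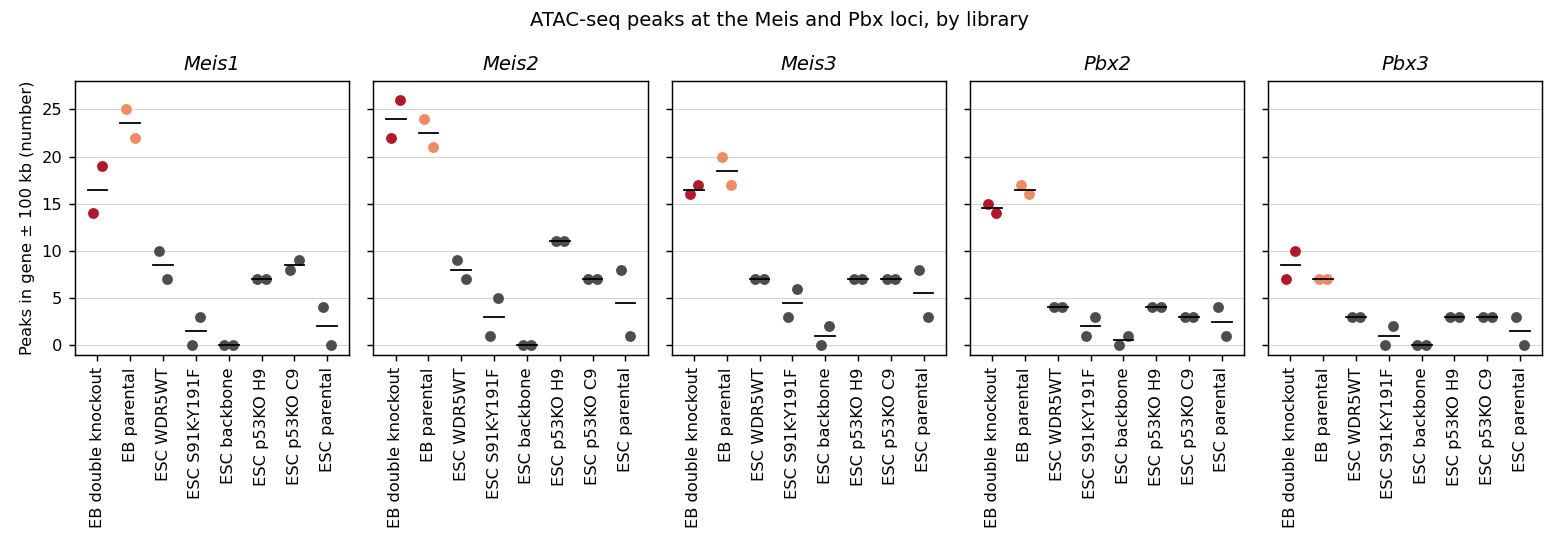
Number of ATAC-seq peaks in each gene with 100 kb on either side (vertical axis) for the 8 groups (horizontal axis); a point is a library and a line the mean of a group's 2 libraries. At every locus the 4 EB libraries lie above all ESC libraries, with 7 to 10 peaks at Pbx3 and 21 to 26 at Meis2, and backbone ESCs have 0 to 2.

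Per 100 kb of window, EB lists averaged 8.24 ± 0.815 peaks at Meis3, 7.56 ± 0.629 at Pbx2, 5.90 ± 1.38 at Meis1, 5.72 ± 0.546 at Meis2 and 1.93 ± 0.374 at Pbx3 (SD, n = 4 libraries). Meis3 and Pbx2 overlapped in their libraries, as did Meis1 and Meis2 and also Meis1 and Pbx2. Every Pbx3 value lay below every value of the other loci. The median over all gene windows was 4.53 peaks per 100 kb, and 86.0% of windows were at or above the Pbx3 mean. In ESC lists the means were 2.51 ± 1.23 at Meis3, 1.37 ± 1.01 at Meis2, 1.35 ± 1.14 at Meis1, 1.30 ± 0.730 at Pbx2 and 0.478 ± 0.360 at Pbx3 (SD, n = 12 libraries), and all 5 ranges overlapped.

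Because the lists differ in length, the peaks of each window were also expressed per 10000 peaks of the list. Meis1 averaged 2.37 ± 0.546 in EBs and 1.62 ± 1.28 in ESCs, Meis2 2.76 ± 0.0705 and 2.28 ± 1.22, Meis3 2.08 ± 0.197 and 3.36 ± 2.15, Pbx2 1.85 ± 0.259 and 1.55 ± 0.936, and Pbx3 0.916 ± 0.121 and 0.701 ± 0.528 (SD, n = 4 EB and 12 ESC libraries). EB and ESC libraries overlapped at all 5 loci on this scale. The ESC means pool 6 groups with lists of unlike length, so the differences below depend on that mix. Backbone ESCs averaged 0 at Meis1, Meis2 and Pbx3, 4.01 at Meis3 and 2.01 at Pbx2. In WDR5WT, C9 and H9 ESCs the means were 2.75, 2.94 and 2.26 at Meis1 and 2.58, 2.43 and 3.55 at Meis2. They were 2.25, 2.43 and 2.26 at Meis3, 1.28, 1.04 and 1.29 at Pbx2, and 0.962, 1.04 and 0.969 at Pbx3. None of the loci passed the two-sided exact permutation test over libraries, adjusted by Benjamini-Hochberg over all 21883 gene windows, in which 17.6% of windows were higher and 0.759% lower in EBs. The differences were 0.758 at Meis1 (exact p = 0.301, adjusted p = 0.538), 0.480 at Meis2 (exact p = 0.494, adjusted p = 0.719), −1.28 at Meis3 (exact p = 0.249, adjusted p = 0.481), 0.307 at Pbx2 (exact p = 0.487, adjusted p = 0.714) and 0.215 at Pbx3 (exact p = 0.497, adjusted p = 0.721). The median difference over all windows was 0.126. With a window of 50 kb the Meis3 difference was 0.387 and that of Pbx2 −0.0530, and in the upper 50% of each list by p that of Pbx3 was −0.376. Thus the excess of EB peaks was seen in counts and was not detectable relative to list length.

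Among the regions specific to EBs, 3 of the 4 at Meis2 and the distal one at Meis1 ranked highest. Fold enrichment below is the authors' value for the peak over local background in its own list. The Meis1 region at chr11:19102949-19103527, outside the gene and 83298 bp from its nearer end, had folds of 4.81 and 6.48 in double knockout EBs and 5.36 and 5.30 in parental EBs. Those values stood at or above the 87.3 percentile of their lists. A region inside Meis2 at chr2:116008967-116009636 had folds of 5.55 and 5.67 in double knockout EBs and 5.29 and 5.74 in parental EBs. Another inside Meis2, chr2:115879528-115880068, had 4.39 and 6.33 in double knockout EBs and 5.43 and 4.40 in parental EBs. A further one, chr2:115980061-115980476, had 4.76 and 5.22 in double knockout EBs and 4.43 and 4.77 in parental EBs. At each of these regions the EB genotypes overlapped, and no ESC list had a peak. The fourth region at Meis2, chr2:116165837-116167081 near the limit of the locus, ranked lower, with 2.88 and 3.43 in double knockout EBs and 2.99 and 2.86 in parental EBs.

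The remaining Meis1 regions of this kind were a close pair 57149 and 58687 bp beyond the gene end, one at 8431 bp and one inside the gene, with folds between 2.74 and 4.74. The EB-specific region inside Meis3, chr7:16183712-16184024, had 4.06 and 4.46 in double knockout EBs and 4.39 and 4.76 in parental EBs. The other Meis3 regions lay nearer to Slc8a2, a sodium and calcium exchanger gene, and to Dhx34, an RNA helicase gene. At Pbx2, the region at the gene's start, chr17:34591812-34593228, had low folds of 2.95 and 2.66 in double knockout EBs and 2.51 and 2.71 in parental EBs. These values lay between the 3.6 and 18.6 percentile of their lists. It covers the GC-rich Pbx2 sequence printed above. The other 6 Pbx2 regions were nearest to Notch4, Ppt2, Prrt1 (2 regions), Fkbpl and Tnxb, so that only 1 of the 7 belongs to Pbx2 by nearest end.

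The count of EB-specific regions moved with position and list length. Of the 19 regions, 6 lay inside a member and 11 had a member as the nearest gene. With EB lists cut to their 32709 best peaks by p, the length of the longest ESC list, 7 of the 19 remained and no other region joined them. These were the distal Meis1 region, the 3 inside Meis2, the one inside Meis3 and 2 at Pbx2, near Prrt1 and Fkbpl, and the region at the start of Pbx2 was not among them. Counting regions per window over all genes, 6.93% of windows held at least 7 such regions as Pbx2 did, 18.0% held 5 as Meis1 did, 27.1% held 4, 39.5% held 3, and 75.2% held at least 1, unlike Pbx3.

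**Figure D2:**
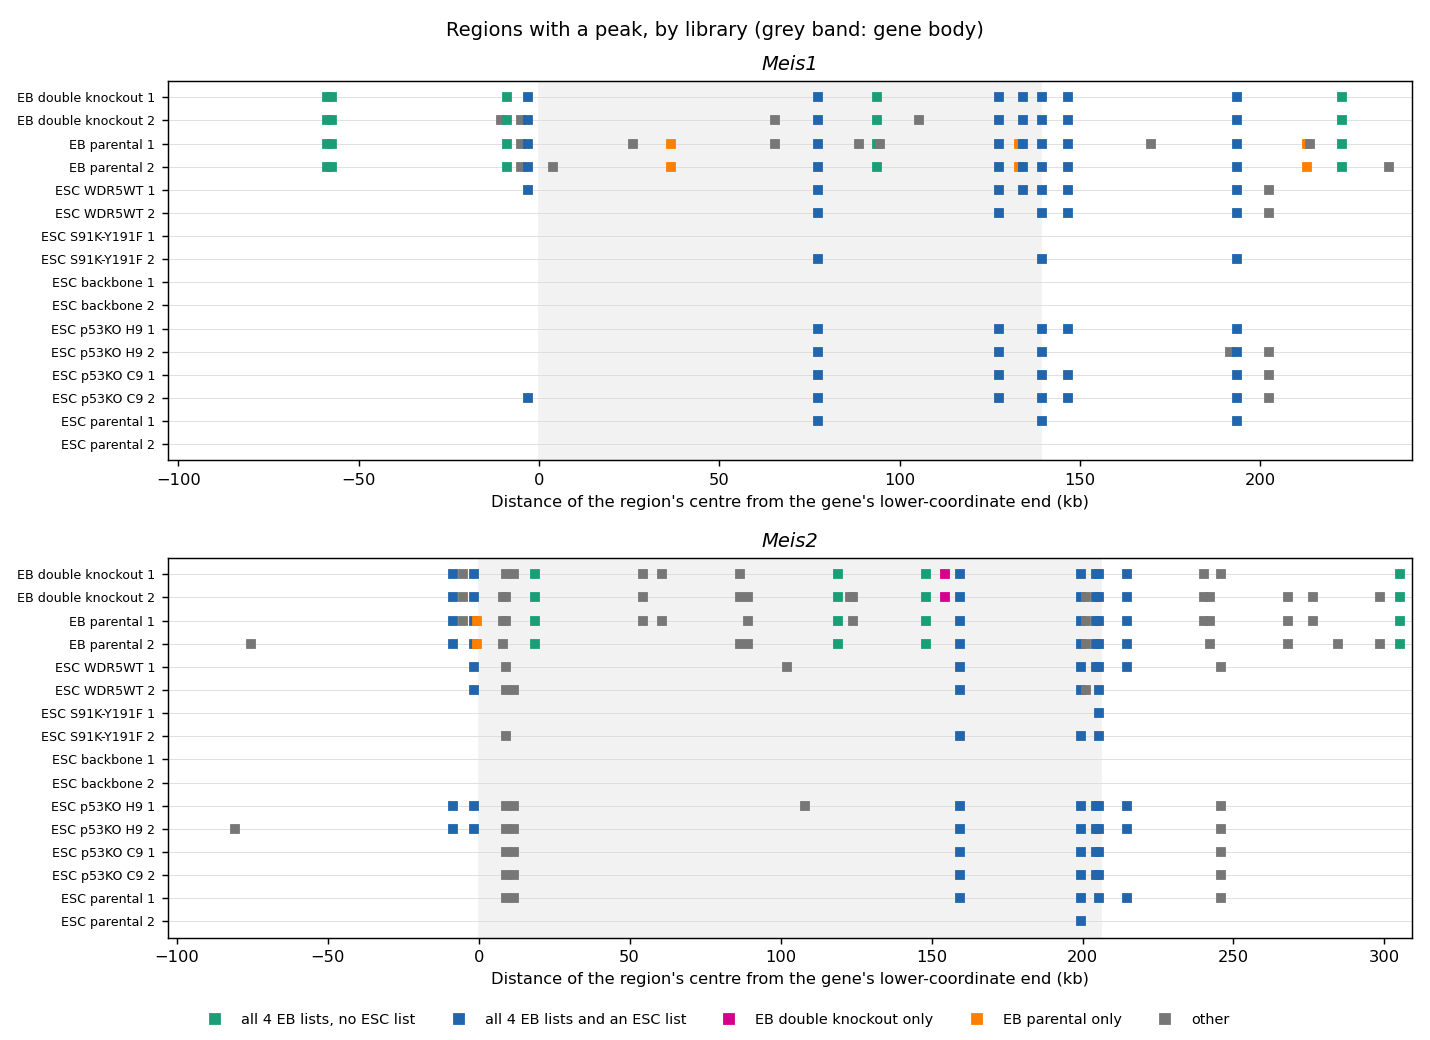
Regions at Meis1 and Meis2 (squares at the centre of each region), with distance from the gene's lower-coordinate end in kb on the horizontal axis, a row for each of the 16 libraries and the gene body in grey. Meis1 has 5 and Meis2 has 4 regions of all 4 EB lists without an ESC peak, and the backbone rows are empty.

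Regions shared by both stages lay at gene ends and away from them. A total of 28 regions were in all 4 EB lists and in at least 1 ESC list, 22.0% against 15.6% of all regions in the genome, with 7 each at Meis1, Meis2 and Meis3, 4 at Pbx2 and 3 at Pbx3. Of these, 13 lay within 1000 bp of an end of some gene, 4 of them at an end of Meis1, Meis2, Meis3 or Pbx3, and 15 lay farther away. Their median width was 1380 bp, against 541 bp for the 19 EB-specific regions, and the genome-wide medians of these classes were 986 and 573 bp. The region over the upstream end of Meis1, chr11:19018761-19021325, was in 4 EB and 8 ESC lists, that of Meis2, chr2:116066085-116067676, in 4 EB and 9 ESC lists, and that at one end of Pbx3, chr2:34371952-34373621, in 4 EB and 8 ESC lists. The strongest peak inside Meis1 lay at chr11:19007479-19008424, with folds of 5.97 and 6.22 in double knockout EBs and 6.62 and 5.86 in parental EBs, and was in 6 ESC lists. The 3 shared Pbx3 regions, at an end of Pbx3, inside it and at an end of Mapkap1, had folds from 4.84 to 6.14 in the EB lists. All 3 were present in both libraries of WDR5WT, H9 and C9 ESCs and in none of the backbone lists.

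Over the start windows described above, the Pbx2 peak was in 4 of 4 EB lists and 0 of 12 ESC lists. The Meis3 start window had a peak in 4 of 4 EB lists and 7 of 12 ESC lists, and the Meis1 start window in 3 of 4 EB lists and 7 of 12 ESC lists. The Meis2 start window, inside the gene, had none, whereas the region over the upstream end of Meis2 was in both stages. The Meis1 and Meis3 peaks both occurred in each WDR5WT, C9 and H9 list and in replicate 1 of parental ESCs. Neither occurred in a backbone or S91K-Y191F list.

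**Figure D3:**
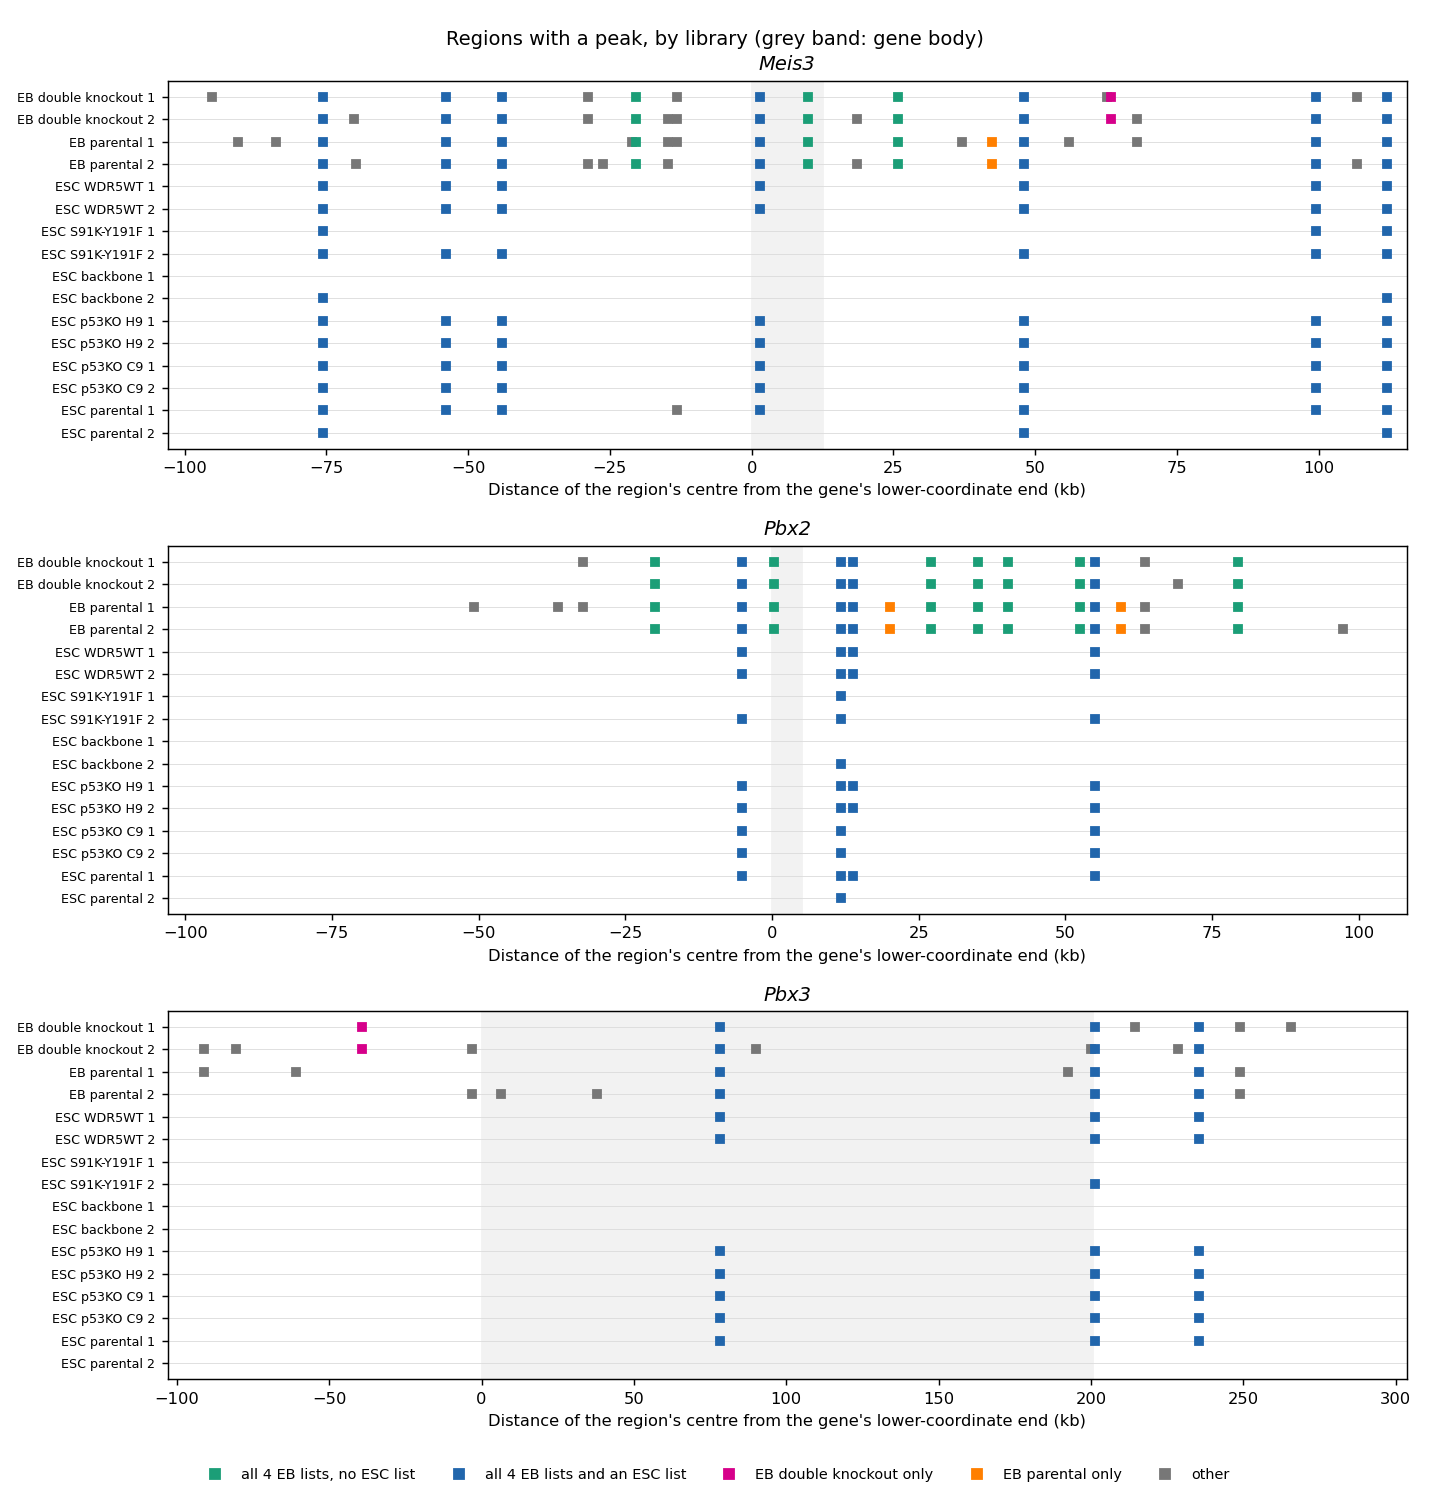
Regions at Meis3, Pbx2 and Pbx3, drawn as for Meis1 and Meis2. Pbx2 has 7 regions of all 4 EB lists without an ESC peak, 1 of them at the start of its gene body, while the 3 Pbx3 regions of all 4 EB lists are each in at least 7 ESC lists.

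Regions of ESCs without an EB peak numbered 2 at Meis1 and 3 at Meis2, and the genome-wide share of this class was not computed. No region was in all 12 ESC lists and no EB list, against 0.0674% over the genome. None could be, since replicate 1 of backbone had 0 peaks at the 5 loci. The Meis1 region chr11:19082474-19083089, 62823 bp outside the gene, was in both libraries of WDR5WT and C9 ESCs, in replicate 2 of H9, and in no EB list. It was the single one of the 127 regions found in both libraries of an ESC group and in no EB list, against 3.91% of all regions. The other 4 were each in 1 ESC list. At Meis2, chr2:115872797-115873384 inside the gene and chr2:116106818-116107413 beyond it were each in 6 ESC lists and in replicate 1 of the double knockout EBs alone among EB lists, with folds of 2.67 and 3.62.

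The same stages were compared within a genotype. Between parental EBs and parental ESCs, 43 of 111 regions were in both EB lists and neither ESC list, 38.7% against 36.5% over the genome. Meis1 had 14 of these, Meis2 13, Pbx2 10, Meis3 5 and Pbx3 1, and the count was 69 without replicate 2 of the parental EBs. Between double knockout EBs and backbone ESCs it was 58 of 98 regions, 59.2% against 49.6%, with 17 at Meis2, 14 at Meis1, 12 at Pbx2, 11 at Meis3 and 4 at Pbx3. No region was in both ESC lists and neither EB list in either comparison, where the genome had 1.42% and 0.852%. Replicate 1 of backbone had 0 peaks at the 5 loci, so the second comparison could yield no such region. Cut to the length of the shortest list compared, the EB-specific counts were 3 and 0. Those lists had 5330 and 1535 peaks, so few EB peaks could remain and the cut tells little.

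**Figure D4:**
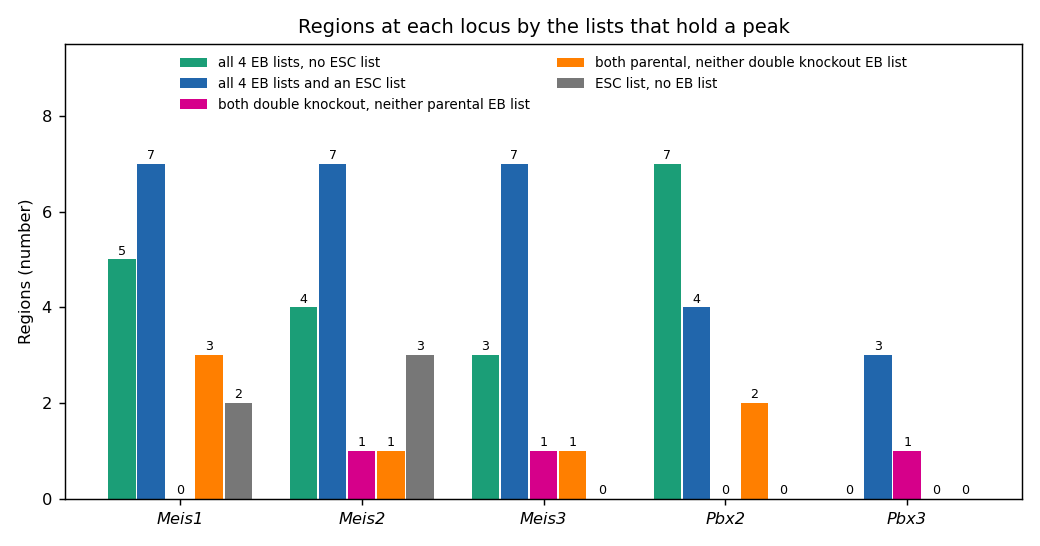
Number of regions at each locus (bars) by the lists that hold a peak. The EB-specific class is highest at Pbx2 with 7 and empty at Pbx3, and regions specific to an EB genotype number 0 to 3 at each locus.

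The next comparison asked what the loss of Wdr5 and p53 changed in EBs. Of 123 regions in the 4 EB lists, 47 were in all of them, 38.2% against 28.4% over the genome. Double knockout EBs alone had 3 regions, 2.44% against 4.69% over the genome, and parental EBs alone had 7, 5.69% against 4.27%. Meis1 was the locus with most parental-specific regions, 3, and had none specific to the double knockout.

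The parental-specific Meis1 regions were at chr11:18916696-18917229 inside the gene, with folds of 4.37 and 3.51 in parental EBs, at chr11:19013116-19013894 inside the gene, with 2.45 and 2.61, and at chr11:19093112-19093778 outside it, with 4.24 and 4.88. The first and the last of these ranked between the 48.9 and 83.4 percentile of their lists and the other was at or below the 3.3 percentile. The other parental-specific regions had folds between 2.41 and 2.95. They were chr2:115860619-115861107, 157 bp beyond the Meis2 end, a Meis3 region nearest to Dhx34 and a pair at Pbx2 nearest to Egfl8 and Atf6b. In all, 10 of the 14 parental peaks in these regions were below the 25 percentile of their list.

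The regions specific to double knockout EBs lay inside Meis2 at chr2:116015480-116015802 with folds of 3.34 and 3.79, near C5ar2 in the Meis3 window at chr7:16237069-16237847 with 3.23 and 2.62, and 39066 bp from Pbx3 at chr2:34132138-34132391 with 2.97 and 3.23. Their percentiles ran between 3.1 and 55.3. At least 3 parental-specific regions in a window, as at Meis1, occurred at 8.13% of all gene windows, and at least 1 occurred at 49.3%. At least 1 region specific to the double knockout occurred at 40.9%. A call needs every library, so leaving one out relaxes the rule and can hardly lower a count. Without one or the other library, the double knockout count lay between 5 and 12 and the parental count between 9 and 21. The genome-wide share under that relaxed rule was not computed. In lists of equal length, 2 of the 3 and 6 of the 7 regions remained, and in the upper 50% of each list by p none of the 3 and 1 of the 7, the distal Meis1 region at chr11:19093112-19093778.

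**Figure D5:**
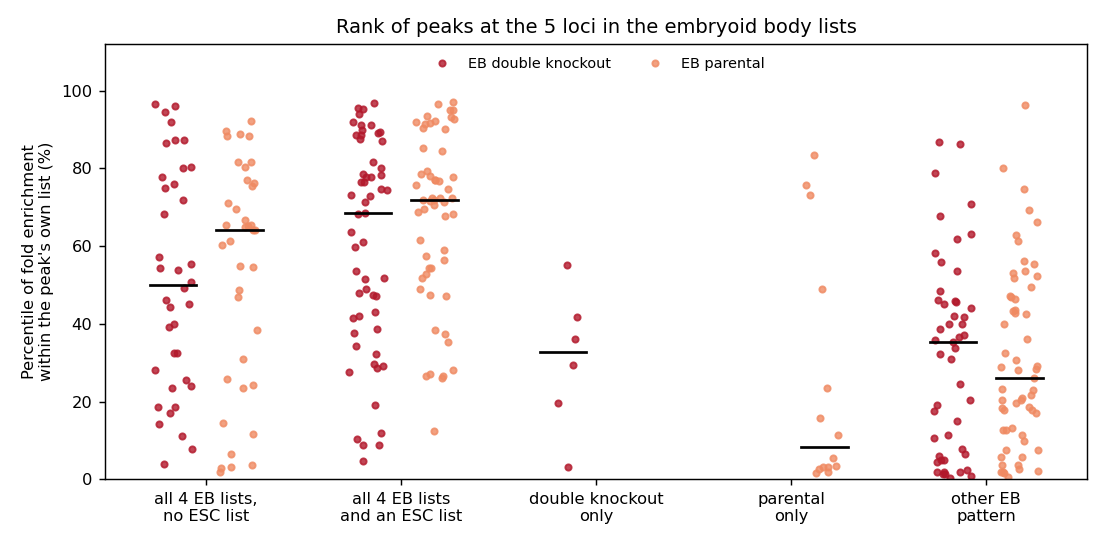
Percentile of each EB peak's fold enrichment within its own list (vertical axis, %) by class of region at the 5 loci, with a point for each peak and a line at the median. Peaks of parental-specific regions have a median of 8.46, those of double knockout-specific regions 32.8, and those of regions shared with ESCs 68.4 in double knockout and 71.9 in parental EBs.

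Relative to list length, Meis1 had 1.79 and 2.03 peaks per 10000 in double knockout EBs and 2.76 and 2.91 in parental EBs. The groups did not overlap, with the double knockout lower, as at 33.0% of all gene windows. Meis3 had 2.05 and 1.82 in double knockout EBs and 2.21 and 2.25 in parental EBs, also without overlap. Meis2 had 2.82 and 2.78 in double knockout EBs and 2.65 and 2.77 in parental EBs, higher in the double knockout by a narrow margin, as at 13.8% of windows. Pbx2 had 1.92 and 1.49 in double knockout EBs and 1.88 and 2.11 in parental EBs, and Pbx3 0.896 and 1.07 in double knockout EBs and 0.774 and 0.925 in parental EBs, with overlap at both.

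Means in double knockout and parental EBs differed by −0.925 at Meis1, 0.0821 at Meis2 and −0.297 at Meis3, each with the exact permutation p = 0.33 (adjusted p = 0.714), the smallest that 2 libraries against 2 allow. The differences were −0.289 at Pbx2 and 0.133 at Pbx3, with exact permutation p = 0.667 (adjusted p = 0.908). The median over all windows was −0.0925, and the exact permutation test called 0 windows at either an adjusted or an unadjusted threshold of 0.05. The design therefore gives sizes without a test that could pass. Marker peaks in the double knockout were fewer or equal in number for every marker list but trophectoderm, which was mixed. Neural and eye field genes had 6 of 7 with a peak in both double knockout lists against 7 in both parental lists. Naive pluripotency genes had 5 and 6 of 7 against 7 and 7, and formative and primed genes 4 and 5 of 5 against 5 and 5. Primitive streak and mesoderm genes had 4 of 5 in every list. Endoderm genes had 2 and 2 of 4 against 3 and 2, and trophectoderm genes 3 and 3 of 4 against 2 and 4. The part of cell composition in the Meis1 difference was not tested.

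Among ESCs, the comparisons asked which regions depended on WDR5 and on p53. Over the 5 loci together, WDR5WT ESCs had 33 and 28 peaks and S91K-Y191F ESCs 5 and 19, clone H9 had 32 and 32 and clone C9 28 and 29, and backbone ESCs had 0 and 3, against 27 and 5 in parental ESCs. The backbone lists were thus nearly empty at these loci, as they were the shortest lists in all, and replicates of S91K-Y191F and of parental ESCs differed as much as groups did.

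WDR5WT ESCs had 22 of 35 regions in both libraries with no backbone peak, 62.9% against 64.8% over the genome. They were 6 at Meis1, 5 each at Meis2 and Meis3 and 3 each at Pbx2 and Pbx3. The reverse occurred at 0 regions, against 2.19%, and could not occur, since replicate 1 of backbone had 0 peaks at the 5 loci. Cut to the 1535 peaks of the shortest list, the count was 0. That backbone list itself had 0 peaks at the 5 loci, so a cut this short tells little. S91K-Y191F ESCs had 2 of 19 regions in both libraries without a backbone peak, 10.5% against 15.6% over the genome. They lay at the Meis2 end (chr2:116066610-116067526) and at the end of Inafm1 in the Meis3 window. The count was 16 without replicate 1 of S91K-Y191F and 5 without replicate 2 of backbone. The reverse occurred at 0 regions, against 0.408%, and again could not occur here.

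Backbone ESCs had no region of their own against parental ESCs, where the genome had 0.43%. With 0 peaks in replicate 1 of backbone, no such call was possible at these loci. Parental ESCs had 2 of 27 regions without a backbone peak, 7.41% against 11.6% over the genome. These lay inside Meis2 at chr2:116059784-116060736 and at the end of Dhx34 in the Meis3 window. Both directions together came to 24 without replicate 2 of parental ESCs and 5 without replicate 2 of backbone ESCs. WDR5WT and p53 knockout ESCs had no region of 39 that separated them in either direction, against 3.25% and 1.85% over the genome. They shared 21 regions across all 6 libraries, and the genome-wide share of such regions was not computed. Without replicate 1 or replicate 2 of WDR5WT the count of separating regions was 3 or 5.

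Parental ESCs had 0 regions that the p53 knockout ESCs lacked, against 2.44%. p53 knockout ESCs had 2 of 36 regions in all 4 libraries without a parental peak, 5.56% against 11.9% over the genome. They were the strong region inside Meis1, here chr11:19007533-19008424, and chr2:116065523-116065884 inside Meis2. The count was 20 without replicate 1 of parental ESCs, which leaves the short list, and 4 without replicate 2 of H9. Clone H9 had 4 of 35 regions that clone C9 lacked, 11.4% against 4.63% over the genome, and C9 had 0 that H9 lacked, against 2.26%. Of these, 3 lay around Meis2, at chr2:115852455-115853200, chr2:115859407-115860003 and chr2:116075458-116076284, all outside the gene and within 8064 bp of its ends, and 1 lay near Agpat1 in the Pbx2 window. All 4 were also in every EB list. Without replicate 1 of H9 the count was 7. The first of the Meis2 regions was in both H9 libraries and in no other ESC list, and was the only region of the 5 loci found in a single ESC group, against 0.917% of ESC regions for H9. The other ESC groups had none. The genome had 2.27% for WDR5WT, 0.0248% for S91K-Y191F, 0.0553% for backbone, 0.938% for C9 and 0.114% for parental ESCs. For backbone no such region was possible, with 0 peaks in its replicate 1.

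A list of 16 other TALE homeobox genes, MEIS and PBX partners and known targets was set beside the members. Of 375 regions at their loci, 61 were in all 4 EB lists and no ESC list, 16.3% against 10.3% over the genome. Of 369 EB regions, 7 were specific to double knockout EBs and 22 to parental EBs, 1.90% and 5.96%. The shares over the genome were 4.69% and 4.27%. Over all gene windows, 21.3% held at least 2 parental-specific regions and 8.13% at least 3, so the counts of single genes below are common. Genes with at least 2 regions specific to an EB genotype included the MEIS relative Pknox1, with 1 specific to the double knockout and 2 to parental EBs, its relative Pknox2 (1 and 3), the repressor gene Tgif1 (1 and 3) and the eye regulator Pax6 (2 and 2). Pbxip1, which encodes a PBX-binding protein, had 3 specific to parental EBs and 0 to the double knockout. Hoxa2, Hoxb1 and Hoxb2 had 2 each specific to parental EBs and Hoxa9 had 3, with none specific to the double knockout, and windows within a Hox cluster overlap.

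The genes on other chromosomes with the most similar pattern were ranked by Pearson r of peaks per 10000 over the 16 libraries, among 20015 genes. For Meis1 they were Nsun4 (r = 0.966), Chp2 (r = 0.964) and Rnf11 (r = 0.962), and for Meis2 Wwc1 (r = 0.952), Smg9 (r = 0.943) and Rasal2 (r = 0.920). For Meis3 they were Ndufa11 (r = 0.985), Smu1 (r = 0.979) and Spaca6 (r = 0.978), for Pbx2 Scrn3 (r = 0.976), Akr1d1 (r = 0.967) and Kansl2 (r = 0.967), and for Pbx3 Nap1l5 (r = 0.988), Dbr1 (r = 0.987) and Mrpl44 (r = 0.981). These values are descriptions, since the libraries share list length and the backbone lists sit near 0 for many genes.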

How the data were processed

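Accessible chromatin was measured by ATAC-seq in 16 libraries. Per the submitters' processing notes, the tools were MACS2 2.1.2, Genrich 0.6, DESeq2, SAMtools and Bowtie2 2.3.5, the build was mm10, no role is given to each, and the caller of the ESC lists is not given in the sources used here. The authors' deposited ESC lists give a signal of unstated scaling, a −log10 p and a score for each peak. The authors' deposited EB lists give a ratio (fold enrichment over local background), −log10 p and q values and a score. These values were used only to describe or rank peaks within a list. Where an alternative needed the best peaks, they were ranked by the authors' −log10 p.

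Peaks of the 19 autosomes and of X and Y were merged where they overlapped by at least 1 bp among the libraries compared. A region was called specific to a group when all of its libraries had a peak there and the other group's libraries had none. Genes came from the RefSeq table of GRCm38.p6, which gives no strand, and all 5 members and 16 further genes matched. Peaks per 10000 peaks of a list were put to a two-sided exact permutation test over libraries for all 21883 windows, with Benjamini-Hochberg adjustment. Region calls have no test and stand beside their genome-wide share. The permutation test and the merging were tested on simulated data. Python 3.11.15, numpy 2.4.6, pandas 2.3.3, scipy 1.17.1 and matplotlib 3.10.9 were used. Members, gene lists and rules were chosen with earlier results of these data known. Named genes were the 5 members, partner genes with at least 2 genotype-specific EB regions (some are not reported here), the 3 most similar genes for each member and neighbours with a named region nearest to them, which goes beyond a planned limit to regions at their ends. The labels do not say that replicate numbers pair libraries. Alternatives changed the list length, the threshold, the overlap, the window, the assignment, the number of libraries required and the libraries used.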

Additional observations from a re-analysis of the deposited data

Results flagged for a closer look

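The 4 p53 knockout ESC libraries and the 4 EB libraries, which mix 2 genotypes, were examined for a library far from the rest. This was done at each locus for peaks and for peaks per 10000, so the 20 checks share libraries. Of them, 3 were marked, and chance marks about 1 in 20. Meis3 had 2.66 peaks per 10000 in replicate 1 of clone C9, above the other 3 p53 knockout ESC libraries. Pbx3 had 1.14 peaks per 10000 in that library, again the highest of the 4. All 4 of these libraries had 7 peaks at Meis3 and 3 at Pbx3, and this list is the shortest of the 4, with 26305 peaks. In EBs, Pbx3 had 10 peaks in replicate 2 of the double knockout, against 7 in each of the other 3 libraries, and that list is the longest, with 93646 peaks.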

How the results depend on the processing

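For the tests of peaks per 10000, 144 of 150 alternatives kept direction and side of the threshold, and 6 changed direction without a call. In the upper 50% of each list by p, the EB minus ESC difference was −0.376 at Pbx3, and the double knockout minus parental EB difference was −0.324 at Meis2 and −0.156 at Pbx3. With a 50 kb window, the EB minus ESC difference was 0.387 at Meis3 and −0.0530 at Pbx2. As bases covered, the double knockout minus parental difference at Meis2 was −0.130. With the replicate block, planned as signs permuted over 2 mean differences, no exact permutation p can fall under 0.5, so it tests nothing here; at Meis1 the difference was 0.758 for EBs and ESCs (adjusted p = 0.608) and −0.925 for the EB genotypes (adjusted p = 0.870). For EBs and ESCs, permuting single libraries within each number, chosen after seeing the data, allows 784 arrangements; exact permutation p lay between 0.236 at Meis3 and 0.514 at Pbx3, no locus was called (adjusted p from 0.473 to 0.741), and 16.2% of all windows were higher and 0.585% lower in EBs. The labels do not say that the numbers pair libraries: over all windows, deviations of same-numbered libraries correlated over 0.1 in 2 of 28 pairs of groups. For the EB genotypes the correlation was −0.119, and a block with crossed numbers, chosen after seeing the data, also called 0 windows, unadjusted or adjusted.

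Region counts moved more. For EB-specific regions (19 in all EBs, 43 in parental and 58 in double knockout EBs against ESCs), equal list length gave 7, 3 and 0, the interior of the gene gave 6, 14 and 20, and allowing 1 exception per group gave 35, 101 and 98. The upper 50% by p gave 12 and 33 for all EBs and the double knockout, and nearest gene alone 11 and 38. For the regions specific to double knockout and parental EBs, the gene interior gave 1 and 2 and an allowed exception 25 and 40, and for parental EBs the upper 50% gave 3 and nearest gene 4. In ESCs, an allowed exception gave 27 for backbone and parental, 19 for S91K-Y191F and backbone, 35 for WDR5WT and backbone, 9 for WDR5WT and p53 knockout, 23 for p53 knockout and parental, and 10 for H9 and C9. Equal length gave 0 for each backbone comparison, 1 for p53 knockout and parental, and 1 for H9 and C9. With backbone lists the cut was to 1535 peaks, too few to tell. The gene interior gave 1 for backbone and parental, 1 for S91K-Y191F and backbone, 10 for WDR5WT and backbone, and 0 for the clones. Nearest gene gave 1, 1 and 14 for the backbone comparisons. The upper 50% gave 4 for S91K-Y191F and backbone, 1 for WDR5WT and p53 knockout, 5 for p53 knockout and parental, 1 for the clones and 0 for regions of a single ESC group, and a 50 kb window gave 1 for S91K-Y191F and backbone. The cause was not tested, beyond the fewer peaks or bases that these settings admit.

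Leaving out a library gave 19 to 25, 43 to 69 and 58 to 83 EB-specific regions, 5 to 12 specific to double knockout and 9 to 21 to parental EBs, 2 to 24 for backbone and parental, 2 to 16 for S91K-Y191F and backbone, 22 to 30 for WDR5WT and backbone, 0 to 5 for WDR5WT and p53 knockout, 2 to 20 for p53 knockout and parental and 4 to 7 for the clones. Leaving out a library and allowing an exception both relax the rule of a call. Those counts can hardly fall, and their rise is partly set by the rule. With an allowed exception, every region was called in each comparison with backbone lists, so those counts tell nothing. They were 98 for double knockout EBs, 27 for parental ESCs, 19 for S91K-Y191F and 35 for WDR5WT. Merging within 200 bp and an overlap of 50% kept every count within 1.5 times. Unknown depth limits all of this: a peak just under a list's limit counts as missing.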
